A study of Mus with 2 samples.

Results

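Endothelial cells with Sox17 and Gja4 messages were examined in single-cell RNA-seq of newborn mouse kidney (postnatal day 0, 10x Chromium 3′ libraries). A barcode, the tag of 1 droplet and taken as 1 cell, was kept with at least 2000 UMIs (unique molecular identifiers, each standing for 1 captured message) and at most 10% of them in mitochondrial genes. A kept barcode was a member with at least 2 UMIs of Pecam1 and Cdh5 together and at least 2 of Sox17 and Gja4 together, with no Aplnr or Epcam UMI and at most 1 of Col3a1. By this rule 238 of 11369 kept barcodes were members, 150 of 6220 in replicate 1 and 88 of 5149 in replicate 2. Members made up 2.41% of kept barcodes in replicate 1 (exact binomial interval 2.04 to 2.82%) and 1.71% in replicate 2 (1.37 to 2.10%), and 18.4% and 16.4% of the 814 and 535 barcodes with at least 2 Pecam1 and Cdh5 UMIs.

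Both libraries came from kidneys labelled Rbpj c/- ; Foxd1cre/+, a mutant in which Foxd1Cre acts on a floxed Rbpj allele in the renal interstitium, the stromal tissue between the tubules. Endothelium is not the compartment the design names as the site of deletion by Foxd1Cre. The label also gives a second Rbpj allele, written as - and not tied there to Foxd1Cre. Members are therefore not taken as wild type for Rbpj. The labels do not say how many animals stand behind a library, so the spread between the 2 libraries may be partly technical. The design also names control libraries, Rbpj c/+ ; Foxd1cre/+, which were not analysed here, and no value below compares genotypes.

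Arteries are lined by endothelial cells whose identity depends on SoxF transcription factors such as Sox17 and on Notch signalling, in which the ligands Dll4, Jag1 and Jag2 activate Notch receptors and Rbpj carries the signal to targets such as Hey1 and Hey2. Gja4 and Gja5 encode connexins, the gap junction proteins that couple arterial endothelial cells. Aplnr encodes the apelin receptor, a gene typical of veins and of the growing capillary plexus. In the kidney the arterial tree runs through arterioles into the glomeruli, and efferent vessels continue into the descending vasa recta, the medullary vessels known for the water channel Aqp1 and the urea transporter Slc14a1.

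The deposited matrices held 163405630 and 135436576 UMIs. Members had a median of 7643 and 8199.5 UMIs per barcode and together 1737971 and 910456 UMIs. The libraries shared 6 kept barcode sequences, of which 0 were members'. The main comparison class was Aplnr-positive endothelium, with at least 2 Pecam1 and Cdh5 UMIs, at least 1 Aplnr UMI and the members' own limits on Col3a1 and Epcam. It held 468 and 329 barcodes with median depths of 9133 and 10227 UMIs, above the members' depth. The median share of mitochondrial UMIs was 4.82% and 4.92% in members and 5.68% and 5.78% in that class. Levels are given as CPM, a class's UMIs of a gene scaled to counts per 1000000 of its UMIs in 1 library, replicate 1 before replicate 2.

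Members were chosen by their measured UMIs of 7 genes (Pecam1, Cdh5, Sox17, Gja4, Aplnr, Col3a1 and Epcam), which are described without a test. Sox17, on chromosome 1 at 4490928 to 4497426 (GRCm38.p6), stood at 773 and 1190 CPM in members and at 201 and 251 CPM in Aplnr-positive barcodes. Gja4, on chromosome 4 at 127311420 to 127314039, stood at 257 and 378 CPM against 20.9 and 22.6 CPM. Most members were chosen through Sox17: 94 and 57 members held both genes, 51 and 30 only Sox17, and 5 and 1 only Gja4. Aplnr, on chromosome 2 at 85136360 to 85139923, was absent from members by the rule and stood at 277 and 280 CPM in the other class. Sox17 and Gja4 were not absent there, since 42.1% and 41.0% of Aplnr-positive barcodes also held at least 2 UMIs of the pair. Pecam1, an endothelial adhesion molecule, was at 1056 and 874 CPM in members, and Cdh5, the endothelial cadherin, at 949 and 1008 CPM.

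The other marker genes given with the class are likewise a description. Edn1, the vasoconstrictor endothelin 1, was at 831 and 804 CPM in members against 124 and 75.8 CPM in Aplnr-positive barcodes. Clec14a, a vascular lectin, was at 318 and 282 CPM against 193 and 209.5 CPM. Ly6c1 was at 425 and 312 CPM against 188 and 162 CPM. All 3 were higher in members in both libraries, Clec14a by the least. In the remaining kept barcodes outside both classes these 3 genes lay between 3.62 and 7.93 CPM.

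At the rule's threshold, 19 and 10 members held exactly 2 Sox17 and Gja4 UMIs, and 29 and 13 barcodes met every other limit with exactly 1. Gja5 was at 27.4 and 12.7 CPM just inside and at 29.0 and 13.15 CPM just outside. Plvap, a capillary protein of fenestrae, was at 315 and 420.2 CPM inside and at 372 and 526 CPM outside. Fbln5 was at 253 and 127 CPM inside and 174 and 39.4 CPM outside. Members with 3 or more UMIs, 131 and 78 in number, had Gja5 at 114 and 139 CPM, Plvap at 311 and 229.6 CPM and Fbln5 at 474 and 434 CPM. For Gja5 and Fbln5 the members just inside the threshold lay nearer to the barcodes just outside than to the other members. With so few barcodes on either side of the threshold, the Gja5 levels there rest on few UMIs.

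Against Aplnr-positive endothelium, 25 of 26 arterial genes and 8 of 9 descending vasa recta genes tested were higher in members. By contrast, 7 of 14 capillary and plexus genes and 13 of 20 cell cycle genes were lower. The rule chose members on arterial genes and against a plexus gene, so these list counts describe the class. Elastin (Eln), the kinase Bmx, the connexin Gja5 and the urea transporter Slc14a1 were among the genes with the largest positive differences. Of 13130 genes tested, 1889 (14.4%) passed an adjusted p of 0.05 in edgeR's quasi-likelihood test on sums per library, 927 (7.06%) higher in members and 962 (7.33%) lower. The limits on Col3a1 and Epcam in the Aplnr-positive class were added to those of the rule, and without them (529 and 373 barcodes) 1135 genes passed. The 10 genes of the rule and the markers are left out of these counts. The median log2 fold change over all genes tested was -0.01, with quartiles at -0.33 and 0.31. Each p-value rests on 2 libraries only. With library as a block, it measures how unevenly the differences between classes repeat in them, pooled over all classes of the fit.

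**Figure D1:**
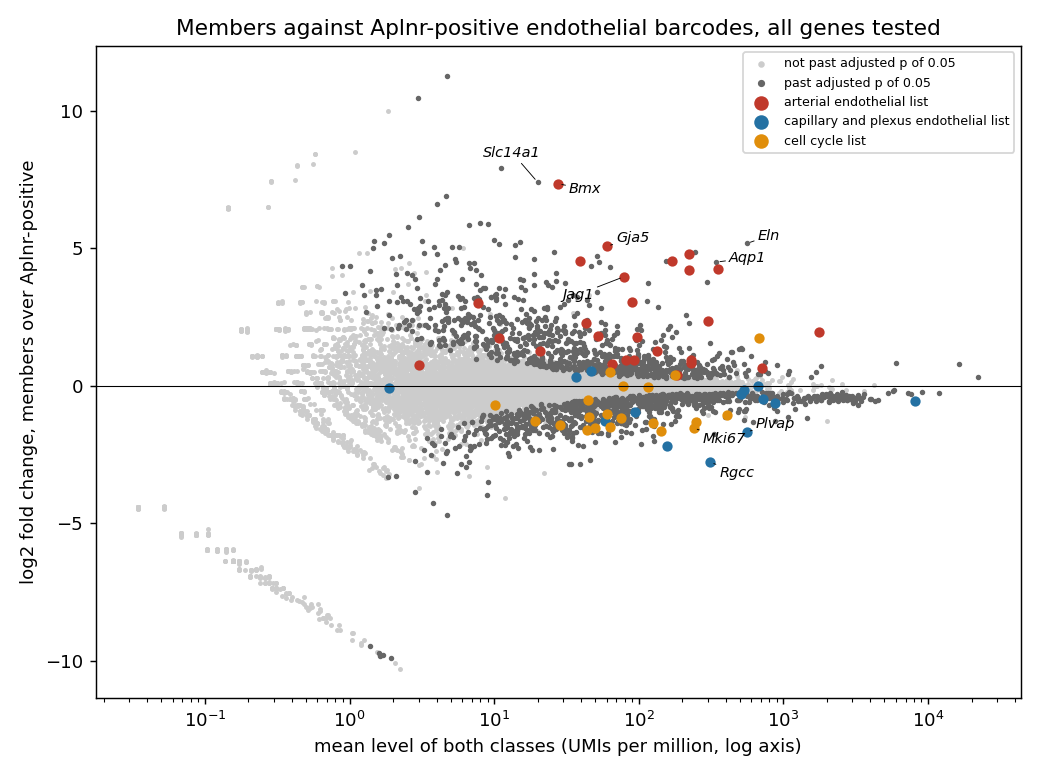
Log2 fold change of members over Aplnr-positive endothelial barcodes (vertical axis) against the mean level of both classes in CPM (horizontal log axis), 1 point for each of the 13130 genes tested. Dark points passed the threshold, and coloured points belong to 3 lists: the arterial genes lie above 0, most cell cycle genes below it. The band of points at the lower left holds genes without a UMI in members.

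Of 26 arterial genes tested, 25 were higher in members, none was lower, and the median log2 fold change was 1.88 against -0.01 for all genes. Members were chosen on Sox17 and Gja4, themselves arterial genes and left out of the 26. The list was also chosen with earlier results of these data known, so its count is a description. Alpl was the gene that did not pass, with 3 and 6 member UMIs. Gja5, connexin 40, on chromosome 3 at 97032402 to 97053634, was at 106 and 128.5 CPM in members and at 1.79 and 5.44 CPM in Aplnr-positive barcodes. Its members' values exceeded the other class in both libraries (log2 fold change 5.08 ± 0.37 SE, adjusted p = 0.00011), by 5.85 in replicate 1 alone and 4.54 in replicate 2 alone. Bmx, a tyrosine kinase of arterial endothelium, was at 61.0 and 49.4 CPM against 0.41 and 0.21 CPM. The latter values rest on 3 and 1 UMIs, which leaves the size of the fitted difference of Bmx (7.34 ± 0.46, adjusted p = 5.8e-05) imprecise.

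Vegfc, a growth factor best known for lymphatic growth, was at 59.8 and 90.1 CPM in members against 1.92 and 4.40 CPM (4.53 ± 0.35). Cxcl12, the chemokine that guides Cxcr4-bearing cells, was at 496 and 841 CPM against 18.55 and 50.03 CPM (4.245 ± 0.44). Its receptor Cxcr4 was at 20.7 and 40.6 CPM against 12.6 and 9.42 CPM, a log2 fold change of 1.265 that was 0.72 in replicate 1 alone and 2.11 in replicate 2 alone. The guidance cue Sema3g and the guidance receptor Unc5b were higher by 3.04 and 0.96 on the same scale. Stmn2, a microtubule regulator, was at 296 and 351.5 CPM against 9.34 and 18.4 CPM (4.52 ± 0.37). The ephrin ligand Efnb2, at 282 and 337 CPM against 144 and 158 CPM, and Acvrl1, the endothelial receptor for circulating BMPs, at 171 and 218 CPM against 75.3 and 72.6 CPM, were also higher in members in both libraries, by 0.94 and 1.28.

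**Figure D2:**
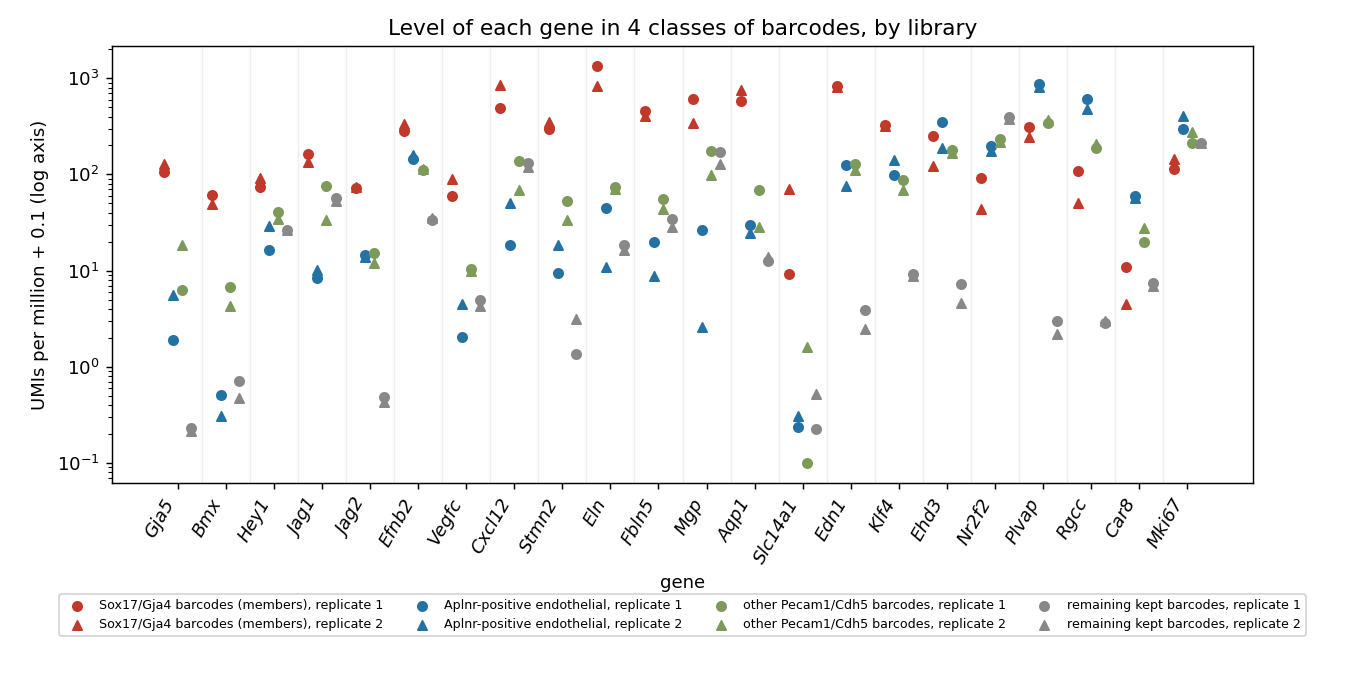
Level of 22 genes in CPM plus 0.1 (vertical log axis) in 4 classes of barcodes, with circles for replicate 1 and triangles for replicate 2. Gja5 stood at 106 and 128.5 CPM in members and below 20 CPM in the 3 other classes, whereas Plvap and Rgcc were highest in Aplnr-positive barcodes.

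Within the Notch pathway, 7 of 16 genes tested were higher in members and none was lower (median log2 fold change 0.33). Among the ligands, Jag1 was at 161 and 135 CPM in members against 8.24 and 10.05 CPM (log2 fold change 3.96 ± 0.30, adjusted p = 0.00011), and Jag2 at 71.9 and 73.6 CPM against 14.4 and 13.8 CPM (2.27 ± 0.19). Dll4, the ligand most used in sprouting vessels, differed by less, at 85.2 and 83.5 CPM against 54.4 and 36.6 CPM (0.79 ± 0.22, adjusted p = 0.041). Both Jagged ligands therefore stood further from the Aplnr-positive class than Dll4 in these libraries, although the difference between the ligands was not tested.

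The Notch receptors Notch1, at 217 and 208 CPM against 155 and 151 CPM, and Notch4, at 118.5 and 101 CPM against 62.65 and 46.5 CPM, were higher in members (log2 fold changes 0.39 and 0.92). Of the target genes, Hey1 was at 73.65 and 91.2 CPM against 16.2 and 29.1 CPM (1.80 ± 0.25), and Hey2 at 15.5 and 12.1 CPM against 2.06 and 1.05 CPM (3.03 ± 0.45). Heyl, the remaining Hey gene, did not pass, with 4 and 0 member UMIs (-0.02). Hes1 and Nrarp did not pass either: Hes1 was at 221 and 276 CPM in members and 252 and 249.7 CPM in the other class, and Nrarp at 52.9 and 62.6 CPM against 48.9 and 47.7 CPM. With the mitochondrial limit at 5%, 4 of the 16 Notch genes passed.

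Rbpj itself, the gene targeted in the stroma of these kidneys, was at 54.1 and 53.8 CPM in members. It was at 39.6 and 44.4 CPM in Aplnr-positive barcodes and 46.9 and 47.3 CPM in all other kept barcodes, those outside both classes. Neither difference passed the threshold (adjusted p = 0.25 and 0.11). The count does not separate the floxed allele, its form after deletion and the - allele of the label. EYFP, a transgene in the reference that the labels do not explain, was at 25.3 and 8.79 CPM in members, 13.6 and 9.21 CPM in Aplnr-positive barcodes and 65.1 and 61.1 CPM in all other kept barcodes. It was lower in members than in those barcodes (-1.69 ± 0.24, adjusted p = 9.2e-05), and was found in 14 of 150 and 5 of 88 members.

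Genes of the descending vasa recta list were higher in members for 8 of 9 tested, with a median log2 fold change of 1.34. Aqp1 was at 575 and 749 CPM against 29.5 and 24.7 CPM (4.50 ± 0.29, adjusted p = 6.6e-05). Slc14a1 was at 9.21 and 70.3 CPM against 0.14 and 0.21 CPM, a difference of 7.41 ± 0.79 that was 5.53 in replicate 1 alone and 7.82 in replicate 2 alone, against 1 Aplnr-positive UMI in each library. It rested on few members, with 16 UMIs in 6 members of replicate 1 and 64 UMIs in 10 members of replicate 2. Scin, an actin-severing protein, was at 62.1 and 129.6 CPM against 7.69 and 7.96 CPM (3.425 ± 0.28, with 3.01 and 4.01 in the single libraries). Igfbp7, Cryab, Adipor2, Podxl and Cldn5 were also higher, by 0.63 to 1.72, and the inositol transporter Slc5a3 was at 34.0 and 60.4 CPM against 25.3 and 22.6 CPM (adjusted p = 0.055). With the mitochondrial limit at 5%, 5 of these 9 genes passed, and with 5000 UMIs drawn per barcode before the rule was applied, 4 of 8.

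The matrix list split, with 10 of 22 genes higher in members and 7 lower (median log2 fold change 0.06). Eln, Fbln5 and Fbln2 were on the higher side, and Emilin1, another protein of elastic fibres, on the lower (-1.25). Eln, elastin itself, was at 1348 and 836 CPM in members against 44.65 and 10.9 CPM (5.18 ± 0.32, adjusted p = 5.4e-05), and by 4.91 and 6.25 in the single libraries. Fbln5, needed to assemble elastic fibres, was at 456 and 407.5 CPM against 19.9 and 8.79 CPM (4.78 ± 0.18, with 4.51 and 5.52 in the single libraries), and its relative Fbln2 at 520 and 331 CPM against 30.1 and 12.6 CPM (4.21 ± 0.20). Both fibulins and elastin were higher in each library.

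Mgp, an inhibitor of vessel calcification, was at 603 and 342 CPM against 26.5 and 2.51 CPM, a log2 difference of 4.50 in replicate 1 alone and 7.03 in replicate 2 alone. Fn1, fibronectin, was at 559 and 544 CPM against 35.2 and 42.1 CPM (3.76 ± 0.17). Lox, the enzyme that crosslinks elastin and collagen, which was in no list, was at 29.9 and 24.2 CPM against 1.10 and 0.21 CPM (5.14 ± 0.45, with 4.69 and 6.30 in the single libraries). Of basement membrane genes, Col18a1, Lama5 and Lamb2 were higher in members (2.28, 1.32 and 0.99 on the log2 scale), and Col15a1, Lama4, Lamb1 and Col4a1 were lower (-1.43, -0.76, -0.45 and -0.29). Col4a1 was the most even of these, at 1898 and 1779 CPM against 2194 and 2040 CPM. Bgn and Nid2, with Emilin1, made up the rest of the lower genes, and Vcan and Sparcl1 the rest of the higher ones. The lower side depended more on the processing, with 3 genes lower when the Aplnr-positive class had no limits on Col3a1 and Epcam and 4 without barcodes of other types.

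Of 19 genes that respond to flow or act on vessel tone, 11 were higher in members and 2 lower (median log2 fold change 0.63). Klf2 and Klf4, transcription factors induced by shear stress, were at 1056 and 1296 CPM against 596 and 695 CPM, and at 327 and 318.5 CPM against 98.5 and 140.0 CPM (0.77 ± 0.08 and 1.37 ± 0.17). Ace, which makes angiotensin II, was at 47.8 and 24.2 CPM against 2.89 and 1.05 CPM (4.07 ± 0.45). Cav1, the coat protein of caveolae, was at 486 and 452.5 CPM against 163 and 139 CPM (1.54 ± 0.11). On the lower side, the endothelin receptor Ednrb was at 296 and 168 CPM against 438 and 406.5 CPM, and the prostaglandin synthase Ptgs1 at 6.33 and 12.1 CPM against 48.8 and 69.7 CPM. Ednrb was at -0.60 (adjusted p = 0.28) without barcodes holding markers of other cell types. Ece1, which processes endothelin, was higher by 0.39.

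BMP and TGF-beta genes were higher in 8 of 20 cases and lower in 2 (median log2 fold change 0.32). The ligand Tgfb2 was at 221 and 377 CPM in members against 11.3 and 12.1 CPM (4.54 ± 0.34, adjusted p = 0.00011), and Bmp4 at 94.4 and 81.3 CPM against 24.9 and 18.8 CPM (1.91 ± 0.16). Tgfb1 went the other way, at 144 and 109 CPM against 232 and 192 CPM (-0.82 ± 0.11). The receptors Acvrl1 and Bmpr2, the inhibitory Smad6 and Smad7 and the target Id1 were higher, by 0.55 to 2.04. Smad1, which relays BMP signals, was lower (-0.74). The ligands of the family thus included both the largest positive difference and one of the negative ones.

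VEGF and angiopoietin genes showed no common direction, with 4 of 15 higher and 4 lower (median -0.14). Vegfa, Angpt1, Vegfc and the coreceptor Nrp1 were higher, while Tek, the angiopoietin receptor, was at 138 and 102 CPM against 251 and 238 CPM (-1.10 ± 0.11, adjusted p = 0.0003). The other lower genes were Flt4, Nrp2 and the apelin ligand Apln. Only 1 gene was lower when the Aplnr-positive class had no limits on Col3a1 and Epcam, and 2 were higher without barcodes of other types. Kdr, the main VEGF receptor, was at 762 and 621 CPM against 702 and 597 CPM and had a fitted log2 fold change near 0 (adjusted p = 1). Flt1, the decoy receptor, was at 545.5 and 509.6 CPM against 535 and 554 CPM.

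**Figure D3:**
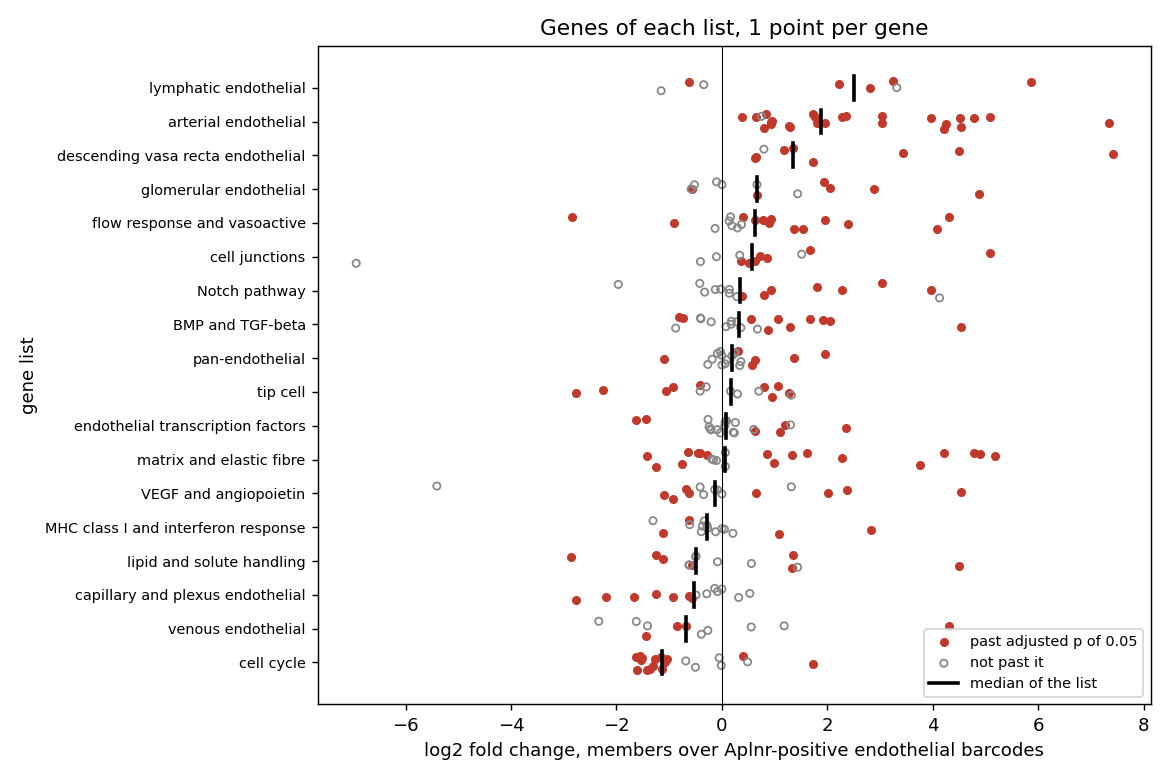
Log2 fold change of members over Aplnr-positive barcodes (horizontal axis) for every gene tested in 18 lists (vertical axis), with filled points past an adjusted p of 0.05 and a black bar at the list's median. The medians run from 2.51 for the lymphatic list, which rests on few barcodes, and 1.88 for the arterial list to -1.14 for the cell cycle list.

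Genes of cell junctions were higher in 7 of 12 cases and lower in none (median 0.57), among them the tight junction genes Cldn5, at 998 and 705 CPM against 583 and 457 CPM, Tjp1, Jam2, F11r and Cgnl1, besides Gja5. With the mitochondrial limit at 5% only 2 of 11 passed. Among 20 endothelial transcription factors, Mecom was at 452 and 571 CPM against 87.5 and 99.9 CPM (2.35 ± 0.15, adjusted p = 5.4e-05), and Epas1, Gata2 and Hhex were higher by 1.19, 1.09 and 0.62. Nr2f2 and Meox1 were lower. Ets1 and Mef2c, factors shared by endothelial cells, did not pass, at 466 and 505 CPM against 439.5 and 438 CPM, and at 376 and 371 CPM against 408.5 and 428.5 CPM.

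Of 19 endothelial genes not used by the rule, 5 were higher in members, Tm4sf1, Ptprb, Cldn5, Ecscr and Mmrn2, and 1 lower, Tek. With the mitochondrial limit at 5%, 3 were higher, and 8 were with Scrublet doublets removed or without barcodes of other types. The summed level of these 19 genes was 12070 and 12240 CPM in members, 8709 and 7987 CPM in Aplnr-positive barcodes and 399 and 386 CPM in barcodes with fewer than 2 Pecam1 and Cdh5 UMIs. The 3 classes were formed on Pecam1 and Cdh5, so these sums are a description.

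Capillary and plexus genes were lower in members in 7 of 14 cases and higher in none (median log2 fold change -0.53). Rgcc was at 109 and 50.5 CPM in members against 609 and 484 CPM (-2.78 ± 0.20, adjusted p = 0.00011). Plvap was at 311 and 246 CPM against 862 and 815 CPM (-1.67 ± 0.12, adjusted p = 9.1e-05), and the growth factor Igf1 at 67.9 and 46.1 CPM against 259 and 256 CPM (-2.19 ± 0.18). In both libraries members lay below the Aplnr-positive class for these genes. Cd36, Apln, Ifitm3 and Fabp4, a lipid carrier of capillaries, were lower, with log2 fold changes of -1.26, -0.93, -0.62 and -0.56. The count was 4 of 14 when the Aplnr-positive class was taken without limits on Col3a1 and Epcam.

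Of 11 venous genes tested, Nr2f2, the transcription factor that specifies veins, was lower in members, at 92.6 and 43.9 CPM against 196 and 174 CPM (-1.445 ± 0.17), as were Nrp2 and Icam1. Vwf, in this list and also typical of larger vessels, was higher, at 137.5 and 104 CPM against 9.34 and 1.675 CPM, by 3.87 in replicate 1 alone and 5.88 in replicate 2 alone. Without the replicate block 1 venous gene was lower instead of 3. The venous receptor Ephb4 did not pass, at 101 and 80.2 CPM against 107 and 122 CPM.

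Cell cycle genes were lower in members in 13 of 20 cases and higher in 2 (median log2 fold change -1.14). Mki67, a mark of dividing cells, was at 114 and 144 CPM in members against 296.5 and 407 CPM (-1.54 ± 0.13, adjusted p = 0.0002), and Top2a at 139 and 159 CPM against 300.1 and 396.5 CPM (-1.305 ± 0.13). The cyclins Ccnb1, Ccnb2, Ccna2, Ccne2 and Ccnd1, the kinase Cdk1, Birc5 and 4 Mcm helicase genes made up the rest, all at log2 fold changes of -1.03 to -1.64. The exceptions were Cdkn1c, a cell cycle inhibitor, at 1425 and 679 CPM against 381 and 211 CPM (1.73 ± 0.24), and Ccnd2 (0.41). Both lost the call when barcodes with markers of other cell types were left out.

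Of 12 glomerular endothelial genes tested, 5 were higher in members and 1, Fabp4, lower (median 0.66). The summed level of the list was lower in members, at 8416 and 7954 CPM against 11580 and 9679 CPM. Besides Ehd3 and Kdr, the genes that did not pass were Plat (0.66), Lpl (1.435), Gata5 (-0.52) and Nostrin (-0.10). When the Aplnr-positive class had no limits on Col3a1 and Epcam, 3 of 12 were higher. Sost, a secreted Wnt inhibitor, was at 34.5 and 65.9 CPM against 0.41 and 3.14 CPM, a difference of 6.18 in replicate 1 alone and 4.36 in replicate 2 alone. Pi16 was at 55.8 and 26.4 CPM against 5.08 and 5.44 CPM (2.88 ± 0.40, with 3.44 and 2.28 in the single libraries), and Smad6, Cyb561 and Tbx3 were higher by 2.04, 1.94 (1.70 and 2.73 in the single libraries) and 0.66. Ehd3, the gene most used to mark mature glomerular capillaries, did not pass, at 254 and 123 CPM against 352 and 189 CPM (adjusted p = 0.067). Of 15 tip cell genes, the sprouting cells at a vessel's front, 4 were higher (Pdgfb, Cxcr4, Unc5b and Dll4) and 5 lower (Apln, Kcne3, Nid2, Trp53i11 and Rgcc). Kcne3 had a log2 fold change of -2.25, which was -1.25 in replicate 1 alone and -2.86 in replicate 2 alone, and Cxcr4 differed between the libraries as given above. Without barcodes of other types 2 tip cell genes were lower, and with the mitochondrial limit at 5% 1 of 14 was higher.

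The lists of interferon response (median log2 fold change -0.28) and of lipid and solute handling (-0.50) had calls in both directions. Of 15 genes of the first, Ly6a and H2-Q7 were higher and Rsad2 and Ifitm3 lower. No gene of that list was higher with the mitochondrial limit at 5%. The same held when the Aplnr-positive class had no limits on Col3a1 and Epcam. Rsad2, an antiviral enzyme, was at 258 and 264 CPM against 524 and 539 CPM (-1.12 ± 0.14). H2-Q7, an MHC class I gene with near-identical relatives, was at 8.63 and 71.4 CPM against 4.95 and 3.14 CPM, 0.83 in replicate 1 alone and 4.47 in replicate 2 alone, and 0.05 (adjusted p = 0.99) without barcodes holding markers of other cell types. Of 14 genes of the second list, Aqp1, the taurine transporter Slc6a6 and the prostaglandin transporter Slco2a1 were higher, and Car8, Cd36, Fabp5 and Fabp4 lower. Car8, a carbonic anhydrase relative, was at 10.9 and 4.39 CPM against 60.04 and 56.5 CPM, a log2 fold change of -2.42 in replicate 1 alone and -3.52 in replicate 2 alone.

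Beyond the lists, the 15 genes with the largest positive difference included Gm9946, with 39 and 20 UMIs in members against 1 and 0 in Aplnr-positive barcodes, the collagen Col8a1, with 37 and 9 UMIs against 1 and 2, and Tox2 (26.5 and 27.5 CPM against 1.37 and 0.42 CPM, log2 ratios of 4.21 and 5.74 in the single libraries). Fgl2 was among them with 100 UMIs in replicate 1, of which 61 lay in 1 member, and 1 UMI in replicate 2, giving 5.63 and 1.655. At the other end, RP24-416M6.5, Fcgr4, Rasd2 and Bhlhe22 had no UMI in members, and against a floor of 3 UMIs over both libraries the first 3 were at least 3.44-, 3.22- and 3.08-fold lower. Bhlhe22, a transcription factor, was at 4.26 and 2.09 CPM in Aplnr-positive barcodes. Fam83d, a spindle protein, was at 1.15 and 1.10 CPM against 16.1 and 17.2 CPM, and the adhesion gene Nlgn1 at 0.58 and 0 CPM against 8.93 and 9.42 CPM, with 1 and 0 UMIs in members. Plau, the urokinase that activates plasminogen, was at 1.15 and 2.20 CPM against 16.6 and 16.3 CPM (log2 ratios of -3.54 and -2.58 in the single libraries).

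Shares of barcodes with a UMI were compared at equal depth. With 5000 UMIs drawn from each barcode, 118 and 68 members and 408 and 289 Aplnr-positive barcodes remained, 32 and 20 members and 60 and 40 of the other class being shallower. Gja5 was then found in 22.9% and 26.5% of members (26.7% and 36.4% of all members before drawing) against 0.49% and 1.73% of Aplnr-positive barcodes. Barcodes marked as nephron progenitors by at least 2 Six2 and Cited1 UMIs, which should lack Gja5, held it in 0.0791% and 0%. Their median depths were 18769.5 and 15296 UMIs before drawing, and 0 of 1204 allows a share of up to 0.249%. Aqp1 was found in 34.7% and 36.8% of members (47.3% and 52.3% before drawing) against 6.13% and 6.57% of Aplnr-positive and 1.11% and 1.41% of progenitor-marked barcodes.

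Of the genes lower in members, Plvap, Rgcc and Mki67 were also found in fewer of them. Plvap was found in 55.9% and 58.8% of members (68.0% and 69.3% before drawing) against 93.6% and 97.2% of Aplnr-positive and 1.03% and 0.831% of progenitor-marked barcodes. Rgcc was found in 24.6% and 14.7% (32.0% and 23.9%) against 80.6% and 72.3%, and in 0.791% and 0.748% of progenitor-marked barcodes. Mki67 was found in 10.2% and 19.1% (12% and 21.6%) against 34.6% and 36.3%. Ehd3 was found in 43.2% and 26.5% of members (48.0% and 31.8% before drawing) and in 43.9% and 37.0% of Aplnr-positive barcodes, so that the intervals overlapped in both libraries. Most members thus still held Plvap at equal depth.

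**Figure D4:**
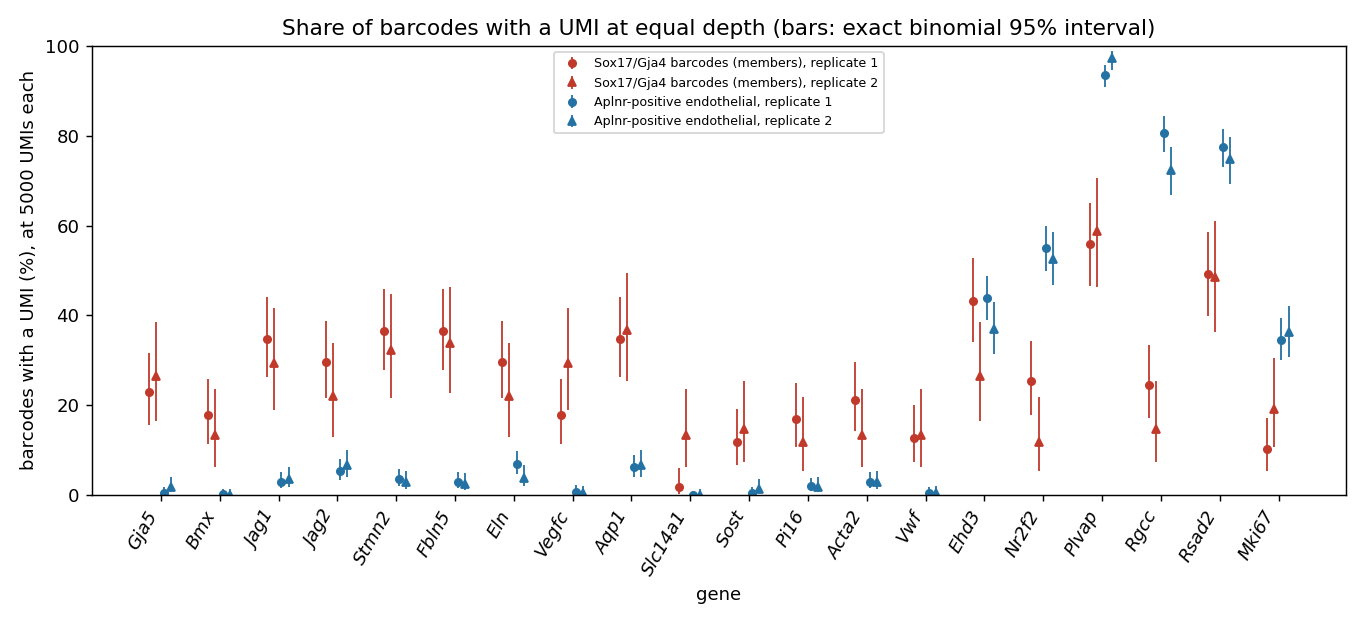
Percent of barcodes with at least 1 UMI of each gene (vertical axis) after 5000 UMIs were drawn from each barcode, for members in red and Aplnr-positive barcodes in blue, with circles for replicate 1, triangles for replicate 2 and exact binomial 95% intervals that cover counting error only. Gja5, at 22.9% and 26.5% of members, and the other genes on the left lie above the Aplnr-positive shares, Plvap, Rgcc, Rsad2 and Mki67 below them, and Ehd3 overlaps.

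Members were not uniform. Gja5 was detected in 40 of 150 and 32 of 88, Aqp1 in 71 and 46, and both in 28 and 26, while 67 and 36 members held neither. These groups were formed after the values were seen and carry no test, and those with Gja5 were deeper, with medians of 11550 and 10390 UMIs against 6472 and 7544 UMIs without it. In members with Gja5, Eln was at 3428 and 1663 CPM, against 98.5 and 49.3 CPM in members without it and 44.65 and 10.9 CPM in Aplnr-positive barcodes. The members' elastin message lay mainly in members with Gja5. Vwf was likewise at 356 and 203 CPM with Gja5 and at 6.45 and 10.7 CPM without.

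Jag1 and Hey1 were graded across these groups. Jag1 was at 311 and 209.6 CPM in members with Gja5, 105 and 119.6 CPM in members with Aqp1 alone, 37.9 and 28.3 CPM in members with neither, and 8.24 and 10.05 CPM in Aplnr-positive barcodes. Hey1 was at 93.6 and 115 CPM, 67.7 and 87.0 CPM, and 55.9 and 56.6 CPM in the same 3 groups of members. Plvap ran the other way, at 150.3 and 158 CPM, 348 and 174 CPM, and 465 and 431 CPM, and Rsad2 at 113.5 and 164.5 CPM, 265 and 255.5 CPM, and 422 and 424 CPM. The members with neither gene were the nearest of the 3 groups to the Aplnr-positive class for Jag1, Hey1, Plvap and Rsad2, with Jag1 and Hey1 above and Plvap and Rsad2 below that class in both libraries.

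Ehd3 did not follow that order, being lowest in members with Aqp1 alone, at 179 and 65.2 CPM, and at 348 and 177 CPM in members with neither gene. Slc14a1 was at 9.20 and 135 CPM in members with Gja5, at 18.8 and 16.3 CPM in those with Aqp1 alone, and at 0 and 3.54 CPM in those with neither gene. Of the members with Slc14a1, 2 of 6 in replicate 1 and 7 of 10 in replicate 2 also held Gja5. Cxcl12 was highest with Gja5 in replicate 1, at 856 CPM, but highest with Aqp1 alone in replicate 2, at 1794 CPM.

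**Figure D5:**
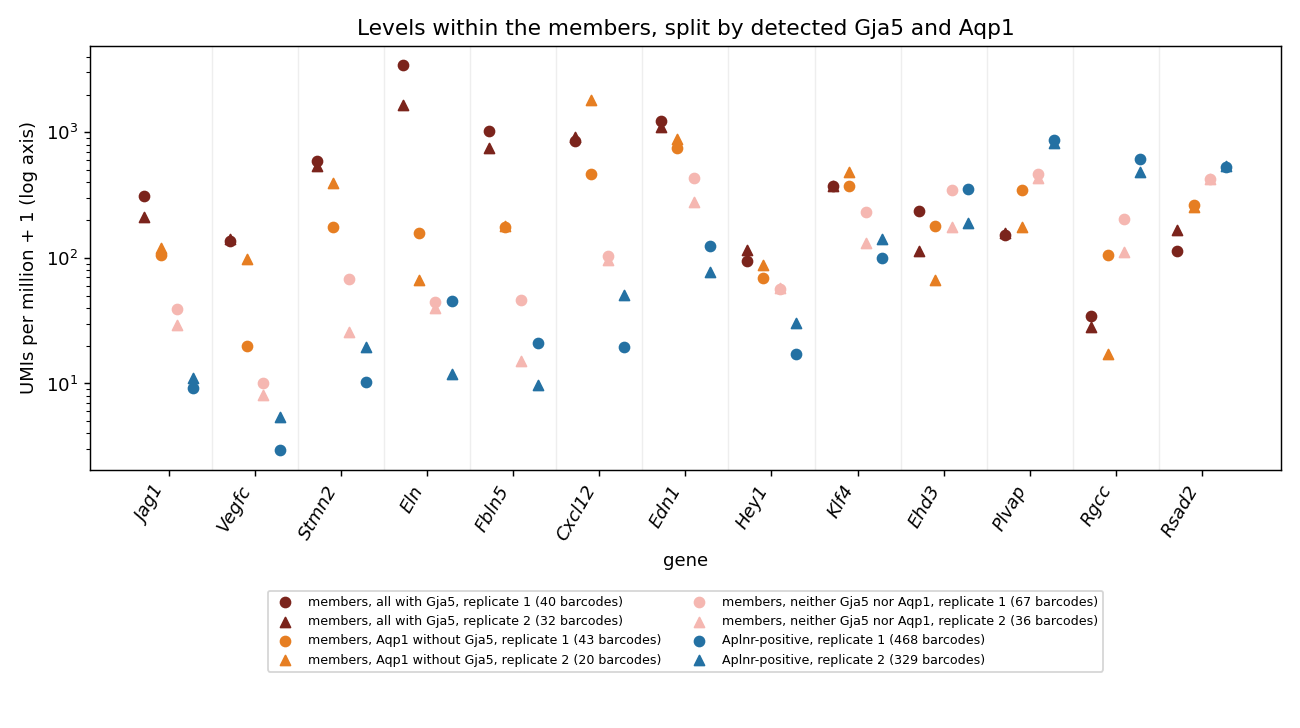
Level of 13 genes in CPM plus 1 (vertical log axis) in members with Gja5, with Aqp1 but no Gja5, and with neither, beside Aplnr-positive barcodes, with circles for replicate 1 and triangles for replicate 2. Jag1 and Eln step down across the 3 groups of members, Eln from 3428 and 1663 CPM, and Plvap and Rsad2 are lowest in the members with Gja5.

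Against all other kept barcodes, 5602 and 4732 outside both members and the Aplnr-positive class, 6956 of 13526 genes tested (51.4%) passed. Higher in members were 3285 genes (24.3% of those tested), and 3671 (27.1%) were lower. Most barcodes of this comparison class are not endothelial, and what that adds to the count was not tested. The 10 genes with the largest positive difference were Gja5, Vwf, Syt15, Dhh, Slc14a1, 8430408G22Rik, Ptprb, Stmn2, Jag2 and Nr5a2. Gja5 was at 0.33 and 0.64 CPM there, a log2 fold change of 8.06 ± 0.33. Dhh, a hedgehog ligand of endothelium, was at 39.7 and 37.3 CPM in members, 6.60 and 6.28 CPM in Aplnr-positive barcodes and 0.30 and 0.27 CPM in all others. Of these 10, Nr5a2 did not pass against the Aplnr-positive class (adjusted p = 0.3).

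Markers of other cell types moved with the comparison in part. Of 8 mural markers tested, the contractile genes Acta2 and Tagln were higher in members. Acta2 was at 243 and 240.5 CPM against 40.8 and 20.9 CPM (2.87 ± 0.29, adjusted p = 0.00039, with 2.58 and 3.52 in the single libraries), found in 36 and 15 members, of which the highest held 112 of 423 and 108 of 219 UMIs. Tagln was at 223 and 109.8 CPM against 27.2 and 53.8 CPM, a difference of 3.03 in replicate 1 alone and 1.03 in replicate 2 alone. The other mural genes were near 0: Myh11 had 4 and 1 UMIs, and Rgs5 3 and 1, in all members. The summed level of the mural list was 473 and 355 CPM in members, 94.0 and 77.9 CPM in Aplnr-positive barcodes and 522 and 460.5 CPM in barcodes with fewer than 2 Pecam1 and Cdh5 UMIs.

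All 7 podocyte markers were higher in members (median log2 fold change 1.63), among them Podxl, Cldn5, Synpo and Wt1. Nphs1 was at 43.7 and 34.1 CPM against 16.5 and 6.49 CPM, log2 ratios of 1.41 and 2.39 in the single libraries. The podocyte list summed to 1933 and 1377 CPM in members and 963 and 810.5 CPM in Aplnr-positive barcodes, Podxl and Cldn5, which endothelium also expresses, included. With barcodes over 50000 UMIs left out, 3 of the 7 were higher.

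Of 8 lymphatic genes, Prox1, Mmrn1, Reln and Pdpn were higher and Flt4 lower. Prox1 had 54 and 3 UMIs in members, 38 of the 54 in 1 member, and Mmrn1 140 and 1. Their log2 ratios in replicate 2 alone were 0.95 and -1.70 and that of Pdpn 3.13, against 3.98, 3.79 and 2.07 in replicate 1 alone. Reln had 46 and 0 UMIs in members against 2 and 1 in Aplnr-positive barcodes, so its difference rested on replicate 1. Of 8 stromal markers, Foxd1 was higher, at 15.5 and 3.30 CPM against 1.65 and 2.09 CPM (3.20 and 0.81 in the single libraries), and Meis1 lower. Of 7 nephron progenitor markers, Eya1 and Tmem100 (4.30 and 2.67 in the single libraries) were higher and Meox1 lower, and of 9 tubule markers Fxyd2 was higher. None of 8 ureteric, 10 immune and 6 erythroid markers passed, and those lists summed to 17.3 and 10.98, 137 and 7.69, and 3872 and 604 CPM in members. DESeq2 also gave 0 for each of these 3 lists, whereas 4 of 6 erythroid genes were lower without barcodes of other types, and 6 immune and 4 erythroid genes lower and 1 immune gene higher with no filter on low counts. A single immune gene was also higher with the mitochondrial limit at 5% (and 1 lower), when the Aplnr-positive class needed at least 2 Aplnr UMIs, and when barcodes were drawn to 5000 UMIs after the classes were formed. An unadjusted p under 0.05 was met by 0 ureteric genes, 1 immune gene (C1qb) and 1 erythroid gene (Hbb-bs).

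Leaving out endothelial barcodes with 2 or more UMIs of podocyte, immune, progenitor, proximal tubule, mural or lymphatic markers left 114 and 72 members. This choice was added after the data were seen. Arterial genes were then higher in 24 of 26 cases (median 2.33), capillary genes lower in 6 of 14 and cell cycle genes in 12 of 20, with Gja5 at 5.21, Eln at 5.52, Aqp1 at 4.52 and Mki67 at -1.85. Acta2 remained past the threshold at a log2 fold change of 4.33 (adjusted p = 0.00012), above the 2.87 in all members, while Tagln was at 1.775 (adjusted p = 0.22), Tagln and Myh11 being the mural markers used for leaving out barcodes. Of the podocyte list 3 of 7 genes were then higher, and no lymphatic gene was, with Prox1 at 0.05 (adjusted p = 0.99). Among the genes named above, the calls of Apln, Nid2, Trp53i11, Cryab, Vegfa, Angpt1, Vcan, Col4a1, Lamb1, Ccne2, Foxd1, Meis1, Eya1, Nphs1, Wt1, Fgl2, Fcgr4, Bhlhe22 and RP24-416M6.5 also missed the threshold in those barcodes. Fgl2 was then at 0.50 (adjusted p = 0.9) and Nid2 at -0.01 (adjusted p = 0.97), while Angpt1 was at 2.70 (0.051), Vcan at 2.13 (0.074), Ccne2 at -1.18 (0.052) and Meis1 at -1.24 (0.066), near or beyond their values in all members. Cryab was at 1.32 (0.2) against 1.72 in all members, and Bhlhe22 and RP24-416M6.5 had no UMI in members in either case.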

How the data were processed

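Single-cell 3′ RNA-seq of newborn kidney was deposited as 2 unfiltered matrices of UMI counts per gene and barcode. The deposited counts are whole and not normalized. Cell Ranger 6.0.1 and mm10 are named in the submitters' processing notes, while the file headers name Cell Ranger 4, and other parameters are not given in the sources used here. Replicate numbers follow the order of the samples and only name them. The members and all gene lists were chosen with earlier results of these data known.

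Counts were summed by class and library for members, Aplnr-positive endothelium, other endothelium and the remaining kept barcodes, and tested with edgeR 4.0.16 (filterByExpr, TMM scaling, quasi-likelihood fit, library as a block because classes of a library share it, Benjamini-Hochberg adjustment over all genes). The fit against Aplnr-positive endothelium had 3 residual degrees of freedom, and that against all other barcodes 2. Members held 1737971 and 910456 UMIs, which limits precision for genes of few UMIs. Intervals are exact binomial (95%) and, like the floor of 3 counts, cover counting error only. On simulated counts for the first comparison the test recovered 79 of 100 genes changed by 1 on the log2 scale. It recovered 100 of 100 changed by 2, and called 10 of 11178 unchanged genes. All simulated classes shared the Aplnr-positive profile with a set spread (dispersion 0.02), and changed genes were drawn from the better detected ones. These rates therefore do not carry over to genes of few UMIs or to UMIs held by few barcodes.

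Named genes were the 15 called with the largest fold in each direction among genes with at least 40 UMIs and the same direction in both libraries, the 10 highest against all other barcodes, and genes of the 26 lists. Doublets were not removed in the reported values. Removal by Scrublet (scanpy 1.11.5), DESeq2 1.42.0, other scalings, filters, depths and class limits were tried as alternatives. The control libraries and single-library tests were not analysed here. Ratios from 1 library were computed with 0.5 added to each count. Some genes of the lists are counted but not reported here by name.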

Additional observations from a re-analysis of the deposited data

How the results depend on the processing

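The 1889 genes called against Aplnr-positive endothelium became 1135 without limits on Col3a1 and Epcam in that class, 1073 with a mitochondrial limit of 5%, 1161 with barcodes drawn to 5000 UMIs after the classes were formed and 1073 when drawn before. Under the other alternatives run the count lay between 1576 (barcodes with markers of other types left out) and 2491 (no filter on low counts), with 1725 without the replicate block and 1968 by DESeq2. Against all other barcodes, 6956 became 4563 with barcodes drawn to 5000 UMIs after the classes were formed, 6852 without the replicate block and 5835 by DESeq2. Leaving out a library leaves no residual degrees of freedom and gives no count of calls.

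The mean share of members among kept barcodes, 2.06%, was 1.31% when Sox17 and Gja4 were each required and 2.66% with the mitochondrial limit of 5%, and ranged from 1.71% to 2.41% without one of the replicates.

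The fold changes of 7 named genes reversed. Mmrn1 became -3.50 with both genes required, -3.09 with the mitochondrial limit of 5%, -2.40 without barcodes of other types, -1.66 when drawn to 5000 UMIs before the classes were formed and, without one of the replicates, -1.70 to 3.79. Prox1 became -1.91 with both genes required, and Reln -4.21 with the limit of 5%. Eya1 became -0.42 with that limit and -1.08 without barcodes of other types. Fxyd2 became -1.45 without limits on the Aplnr-positive class and -0.27 when drawn before. Kcne3 and Nid2 became 0.77 and 0.24 when drawn before. The cause of these changes was not tested.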

Other observations

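Endothelial barcodes that met every other limit of the members but held no Sox17 or Gja4 UMI were 59 and 35 in number, with median depths of 5866 and 5454 UMIs. Plvap was at 645 and 528 CPM in them, Rgcc at 354 and 223.5 CPM, Edn1 at 107 and 65.95 CPM and Gja5 at 11.65 and 3.66 CPM. They are described only, since the counts that separate them from members also depend on depth. Their Gja5 values rest on few UMIs.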
